A study of Arabidopsis thaliana with 6 samples.

Results

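PRA1 genes encode prenylated Rab acceptors, and their transcripts were followed here in roots of Arabidopsis thaliana seedlings. The members were all probe sets of the ATH1 array that the platform annotation pairs with 1 gene and whose symbol begins with PRA1. The rule found 9 probe sets for 9 genes, among 22746 probe sets that are not controls: PRA1.A1, PRA1.B1, PRA1.B4, PRA1.B6, PRA1.E, PRA1.F1, PRA1.G1, PRA1.G2 and PRA1.H. The letter in each name is the branch of the family to which the gene is assigned.

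The 6 arrays came from 3 genotypes in the Col-0 background with 2 arrays each, namely wild-type Col-0, the mutant rsl4-1 and the line 35S::RSL4, all sampled as whole roots at growth stage 3.20. RSL4, a transcription factor of the basic helix-loop-helix class, drives root hair growth. rsl4-1 is labelled as a T-DNA knock-out, and 35S::RSL4 carries RSL4 behind the 35S promoter of cauliflower mosaic virus, which is active in most plant tissues and not only in hair cells. The genetic variation entry reads knock-out for 35S::RSL4 too, and the samples are called by the genotype in their titles. The annotation pairs no probe set with RSL4, so the labels were not checked on that gene. No label says how many independent lines stand behind a genotype, or whether its 2 samples were grown apart, so the p-values rest on a spread between arrays that may be technical. Every group was raised on Murashige and Skoog plates at pH 5.7 with 1% sucrose and 0.5% phytagel, in constant light at 25 °C. The labels of rsl4-1 and 35S::RSL4 give 4 days of cold for the seeds, while those of Col-0 give 2 days in one place and 4 in another, so a difference in cold treatment and a difference of the lines from Col-0 cannot be told apart.

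PRA1 proteins are small proteins of endomembranes with several hydrophobic stretches. They bind Rab GTPases, the lipid-anchored switches that label transport vesicles and their target membranes, and a mammalian PRA1 helps to release Rabs from the inhibitor GDI, which holds them in the cytosol. In Arabidopsis the proteins have been found on the endoplasmic reticulum, the Golgi and endosomes, and a root hair grows at its tip by delivering such vesicles to one small area of membrane.

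The RefSeq gene table names 19 PRA1 loci, counting names kept as synonyms. Of these 9 had a probe set under the rule, 2 had a probe set with 1 gene under another symbol (PRA7, which is PRA1.F2, and PRA8, which is PRA1.F3), 1 (PRA1.F4) shared its probe sets with another gene, and 7 had no listed probe set and are not analysed here. The 9 loci under the rule lie on all 5 chromosomes. PRA1.E, PRA1.F1 and PRA1.G1 are on chromosome 1, as RSL4 is, at 2395, 1227 and 3072 annotated loci from it. PRA1.B4 is on chromosome 2, PRA1.B1 on chromosome 3 and PRA1.H on chromosome 4. PRA1.A1, PRA1.B6 and PRA1.G2 are on chromosome 5.

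Signals below are the authors' MAS5 signals, a scaled brightness of each probe set on a linear scale. They serve to compare arrays for 1 probe set and not to rank different probe sets. Of the 9 members 7 were tested, and each of these 7 lay above its array's 40th percentile on all 6 arrays. PRA1.F1 and PRA1.G1 did not reach that percentile on the required 2 arrays and were not tested. Over the 14170 tested probe sets, log2 signals correlated at 0.982 to 0.986 between arrays of one genotype and at 0.957 to 0.972 between genotypes, with probe sets, not independent replicates, as the points. The summed signal of the 3 measured root hair markers of the 4 listed (EXPA7, EXPA18 and XTH26) was 393 to 417 in Col-0, 242 to 283 in rsl4-1 and 810 to 883 in 35S::RSL4. The 2 measured shoot markers of the 4 listed (RCA and LHCB4.1) summed to 324 to 387 in Col-0, 259 on both rsl4-1 arrays and 251 to 257 in 35S::RSL4. The annotation gave no 1-gene probe set for the 8 listed markers of root cap, ground tissue, vasculature and epidermal patterning. The makeup of the roots was therefore not checked further.

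PRA1.E was the member with the clearest difference between genotypes. Its signals were 146 and 123 in Col-0, 187 and 186 in rsl4-1, and 222 and 190 in 35S::RSL4. Both arrays of each line lay above both Col-0 arrays. The rsl4-1 arrays lay just below the lower 35S::RSL4 array (190) and further below the other (222). It rose 1.53-fold in 35S::RSL4 against Col-0, from 135 ± 16.2 to 206 ± 22.7 (SD, n = 2 arrays; log2 change 0.61, SE 0.15, 95% interval 0.30 to 0.92, limma adjusted p = 0.02). In rsl4-1 its mean was 186 ± 0.16 (log2 change against Col-0 0.47, SE 0.15, limma adjusted p = 0.095), which did not pass. The 2 lines differed by a log2 change of 0.14 with a 95% interval of -0.17 to 0.45 (limma adjusted p = 0.66), so a difference between them was not detectable, and the interval leaves room for one of up to 1.37-fold. This call was lost when Col-0 replicate 1, Col-0 replicate 2 or 35S::RSL4 replicate 1 was left out (adjusted p = 0.063, 0.18 and 0.12), and also when the variance was modelled without an intensity trend (adjusted p = 0.063).

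PRA1.A1, the A-branch gene with a listed probe set, had a like order of genotypes with close replicates. Its signals were 136 and 125 in Col-0, 165 and 168 in rsl4-1, and 179 and 182 in 35S::RSL4. No arrays of different genotypes overlapped. The log2 change in 35S::RSL4 against Col-0 was 0.47 (SE 0.14, 95% interval 0.18 to 0.76), 1.39-fold, and missed the threshold with limma adjusted p = 0.054. It passed with quantile normalization (adjusted p = 0.047) and with median centring (adjusted p = 0.025). The change in rsl4-1 was 0.35 (95% interval 0.06 to 0.64, limma adjusted p = 0.2), and 35S::RSL4 and rsl4-1 differed by 0.12 (-0.17 to 0.41, limma adjusted p = 0.7).

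**Figure D1:**
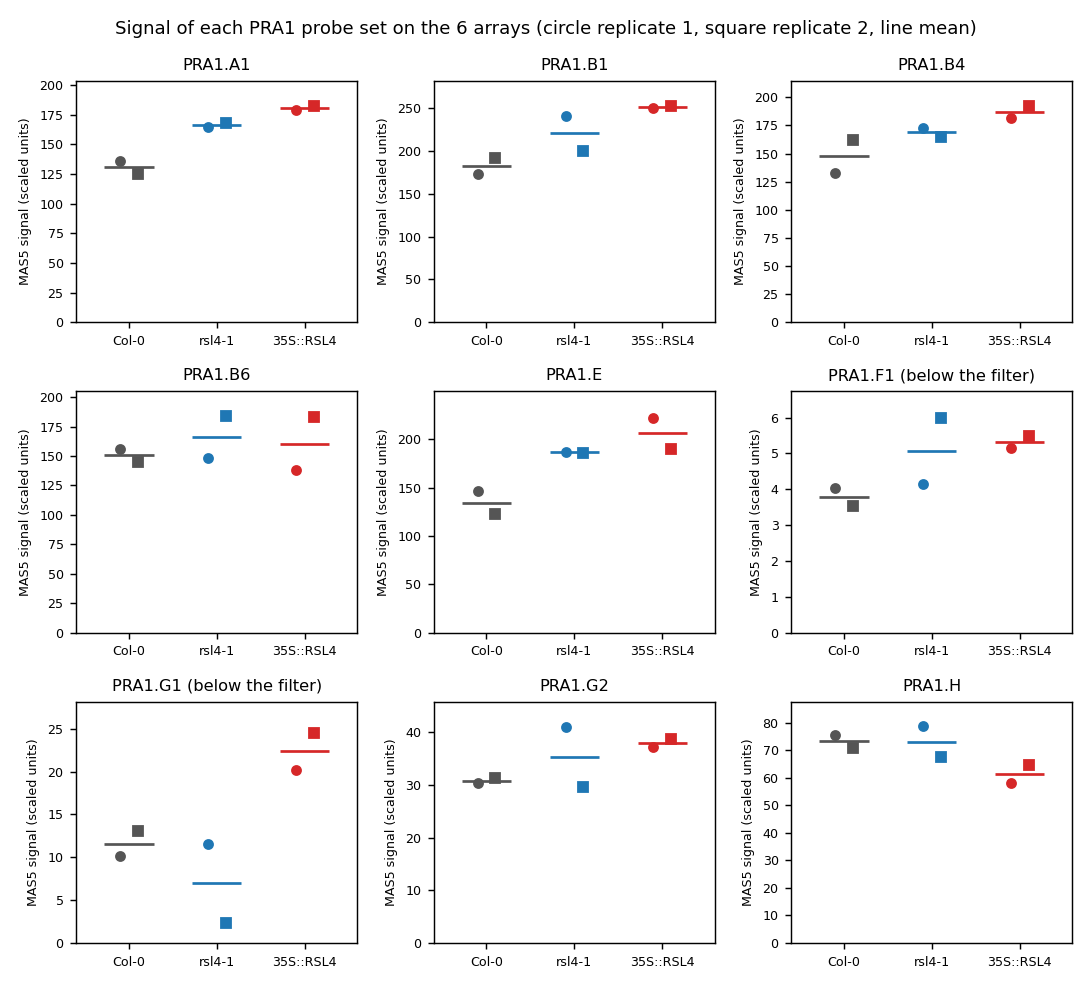
MAS5 signal (scaled units, axis from 0 in each panel) of the 9 PRA1 probe sets in Col-0, rsl4-1 and 35S::RSL4, with a circle for replicate 1, a square for replicate 2 and a line for the mean of the 2 arrays. For PRA1.A1 the Col-0 arrays (125 and 136) sit below all arrays of both lines (165 to 182), while for PRA1.B6 the genotypes overlap; PRA1.F1 and PRA1.G1 lie near or below the 40th percentile.

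Of the 6 B-branch loci, 3 had a listed probe set. With limma 0 of these 3 passed in any comparison. Over all tested probe sets 3.81% passed in rsl4-1 and 6.27% in 35S::RSL4 against Col-0, and 5.46% between the lines. With 3 probe sets the count is near that background and is not a result about the B branch. PRA1.B1 gave 173 and 192 in Col-0, 241 and 200 in rsl4-1, and 250 and 252 in 35S::RSL4. Its 35S::RSL4 arrays were nearly equal and above the other 4, while the rsl4-1 arrays were spread between Col-0 and 35S::RSL4. The log2 change in 35S::RSL4 against Col-0 was 0.46 (SE 0.14, 95% interval 0.16 to 0.76, limma adjusted p = 0.064), and it passed with median centring (adjusted p = 0.031). In rsl4-1 it was 0.27 (-0.03 to 0.57, limma adjusted p = 0.38).

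PRA1.B4 gave 133 and 162 in Col-0, 173 and 165 in rsl4-1, and 182 and 192 in 35S::RSL4. The groups did not overlap, but the upper Col-0 array was close to the lower rsl4-1 array, and the Col-0 SD of 20.7 was the widest of its 3 groups. Its log2 changes against Col-0 were 0.35 in 35S::RSL4 (95% interval 0.04 to 0.66, limma adjusted p = 0.16) and 0.20 in rsl4-1 (-0.10 to 0.51, limma adjusted p = 0.54). PRA1.B6, whose product slows export of proteins from the endoplasmic reticulum to the Golgi when overproduced in Arabidopsis cells, gave 156 and 145 in Col-0, 148 and 184 in rsl4-1, and 138 and 183 in 35S::RSL4. In both lines replicate 2 was the high array and replicate 1 lay close to Col-0, so all 3 groups overlapped. Its changes against Col-0 were 0.08 in 35S::RSL4 (-0.26 to 0.43, limma adjusted p = 0.81) and 0.14 in rsl4-1 (-0.21 to 0.48, limma adjusted p = 0.75), which limits a rise in 35S::RSL4 to about 1.35-fold at the upper bound.

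PRA1.H was the 1 tested member whose mean was lowest in 35S::RSL4. Its signals were 75.6 and 71.0 in Col-0, 78.7 and 67.5 in rsl4-1, and 58.1 and 64.7 in 35S::RSL4. The rsl4-1 arrays bracketed the Col-0 arrays, and both 35S::RSL4 arrays were below all others. The log2 changes were -0.26 in 35S::RSL4 against Col-0 (SE 0.16, 95% interval -0.60 to 0.09, limma adjusted p = 0.37) and -0.25 against rsl4-1 (-0.60 to 0.10, limma adjusted p = 0.44), and neither passed. In rsl4-1 against Col-0 the change was -0.01 (-0.35 to 0.34, limma adjusted p = 0.99).

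Of the G branch, PRA1.G2 was tested and PRA1.G1 was below the filter. PRA1.G2 gave 30.3 and 31.3 in Col-0, 41.1 and 29.7 in rsl4-1, and 37.3 and 38.8 in 35S::RSL4. The rsl4-1 arrays held both the highest and the lowest value of all 6, and both 35S::RSL4 arrays lay above Col-0. Its changes against Col-0 were 0.31 in 35S::RSL4 (SE 0.21, 95% interval -0.15 to 0.76, limma adjusted p = 0.41) and 0.18 in rsl4-1 (-0.27 to 0.64, limma adjusted p = 0.74). PRA1.G1 gave 10.1 and 13.0 in Col-0, 11.5 and 2.36 in rsl4-1, and 20.2 and 24.5 in 35S::RSL4. Only 35S::RSL4 replicate 2 exceeded its array's 40th percentile, which was 20.3 there and 20.3 to 22.4 over the 6 arrays. Both 35S::RSL4 arrays were above the other 4, but those 4 were all below the percentile, so no fold is given. When all 22746 probe sets were tested, PRA1.G1 had limma adjusted p = 0.15 for 35S::RSL4 against rsl4-1 and 0.5 against Col-0. PRA1.F1 was below the percentile everywhere, so no fold is given. It gave 4.05 and 3.54 in Col-0, 4.14 and 6.00 in rsl4-1, and 5.15 and 5.49 in 35S::RSL4. With all 22746 probe sets tested, its limma adjusted p against Col-0 was 0.85 in rsl4-1 and 0.75 in 35S::RSL4. Between the lines it was 0.97, and no difference was resolved.

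**Figure D2:**
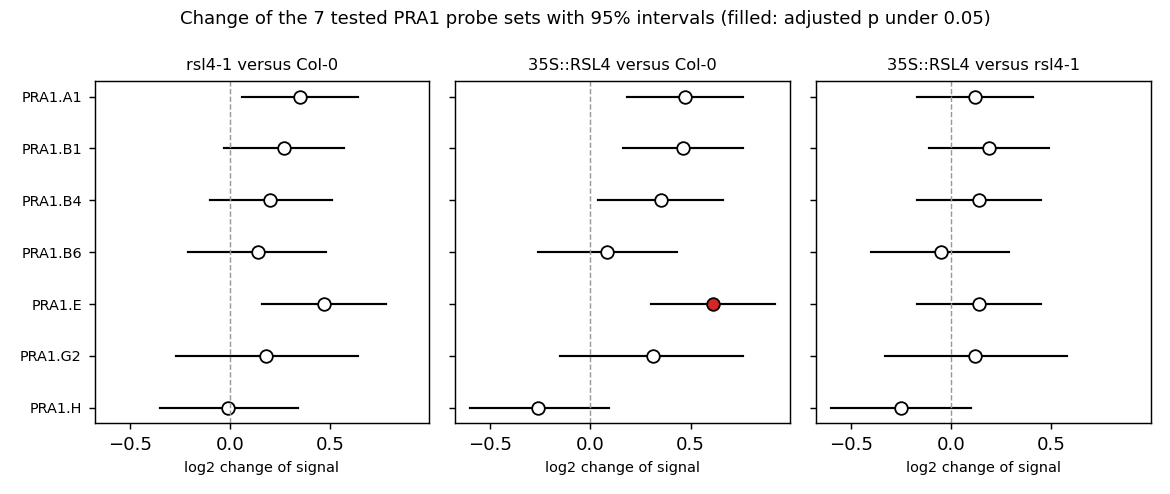
Log2 change of signal with its 95% interval (limma) for the 7 tested PRA1 probe sets in the 3 comparisons, a filled point marking adjusted p under 0.05. The single filled point is PRA1.E in 35S::RSL4 versus Col-0 at 0.61; the other points run from -0.26 to 0.47, and the dashed line marks no change.

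Counted over the members under the rule, 1 of the 7 tested rose in 35S::RSL4 against Col-0, none fell and 6 did not pass. PRA8, a gene of the family outside the rule, rose as well and is described below. Over all tested probe sets 6.27% were called in that comparison, 3.39% as higher and 2.88% as lower, and 1 member of 7 is too few to set against that background. At an unadjusted p under 0.05, 4 of 7 members and 22.7% of all tested probe sets passed. The median log2 change was 0.35 over the 7 members and -0.06 over all tested probe sets, and the members ran from -0.26 to 0.61. The 2 genotypes did not overlap for 6 of the 7 members, 5 of them higher in 35S::RSL4, where 20.2% of all tested probe sets were higher without overlap, 33.2% lower and 53.4% either way. Median centring of the arrays moved this comparison by 0.07 on the log2 scale and turned the calls over all probe sets from 480 higher and 408 lower to 718 higher and 261 lower, and the members called from 1 to 3 (PRA1.E, PRA1.A1 and PRA1.B1).

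In rsl4-1 against Col-0, 0 of the 7 tested members passed with limma, where 3.81% of all tested probe sets did (1.67% higher and 2.15% lower). At an unadjusted p under 0.05, PRA1.A1 and PRA1.E passed, or 2 of 7, against 16% of all tested probe sets. The median log2 change was 0.20 over the members and -0.03 over all tested probe sets, from -0.01 for PRA1.H to 0.47 for PRA1.E. The arrays did not overlap for 4 members, PRA1.A1, PRA1.B1, PRA1.B4 and PRA1.E, each higher in rsl4-1, where 21.3% of all tested probe sets were higher without overlap, 26.7% lower and 48% either way. Median centring turned the calls over all probe sets from 236 higher and 304 lower to 315 higher and 262 lower.

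Between 35S::RSL4 and rsl4-1, 0 of the 7 tested members passed with limma and 0 at an unadjusted p under 0.05, while 5.46% of all tested probe sets were called (3.19% higher and 2.27% lower) and 19.4% passed unadjusted. The members' log2 changes ran from -0.25 to 0.19 with a median of 0.12, beside -0.04 over all tested probe sets. The widest interval was that of PRA1.G2, from -0.33 to 0.58, and that of PRA1.B1 reached from -0.11 to 0.49. The 2 lines did not overlap for 5 of the 7 members, 4 of them higher in 35S::RSL4 (19.3% of all tested probe sets) and 1 lower (28%), with 47.2% either way.

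The comparisons with Col-0 share its 2 arrays, so a chance deviation of those arrays would move both. For PRA1.E the log2 change was 0.47 in rsl4-1 and 0.61 in 35S::RSL4, and for PRA1.A1 it was 0.35 and 0.47. Of the 3 measured root hair markers, EXPA7 and EXPA18 fell in rsl4-1 (limma adjusted p = 0.017 and 0.02), and XTH26 did not pass there (limma adjusted p = 0.078). In 35S::RSL4 against Col-0 EXPA7, EXPA18 and XTH26 all rose (limma adjusted p = 4.3e-05, 0.0026 and 0.00018). The log2 changes of PRA1.E and PRA1.A1 against Col-0 were above 0 in both lines, and only that of PRA1.E in 35S::RSL4 passed. The shoot marker LHCB4.1 fell in both lines (limma adjusted p = 0.016 and 0.0093), with 219 and 188 in Col-0 and 120 to 137 in the lines. RCA, the other measured shoot marker, did not pass in either (limma adjusted p = 0.54 and 0.39), with 168 and 136 in Col-0 and 122 to 139 in the lines. The part of these markers in the members' values was not tested. Bulk root RNA cannot tell more transcript per cell from more cells of a type.

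The F branch was measured mainly through probe sets outside the rule, chosen by RefSeq synonyms or a shared annotation, a choice added after seeing the data. PRA8, which is PRA1.F3, gave 268 and 276 in Col-0, 361 and 328 in rsl4-1, and 453 and 481 in 35S::RSL4. The replicates were close and no arrays of different genotypes overlapped. It rose 1.71-fold in 35S::RSL4 against Col-0, from 272 ± 5.64 to 467 ± 20.1 (log2 change 0.78, SE 0.13, 95% interval 0.51 to 1.05, limma adjusted p = 0.0017), and it passed under all 15 alternatives, with adjusted p up to 0.033. Against rsl4-1 the change was 0.44 (0.17 to 0.71, limma adjusted p = 0.056), which passed with median centring (adjusted p = 0.04). In rsl4-1 against Col-0 it was 0.34 (0.07 to 0.61, limma adjusted p = 0.18).

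PRA7, which is PRA1.F2, gave 138 and 135 in Col-0, 157 and 137 in rsl4-1, and 129 and 169 in 35S::RSL4. The 35S::RSL4 arrays held both the lowest and the highest value, and its log2 change there was 0.12 (95% interval -0.21 to 0.46, limma adjusted p = 0.69). PRA1.F4, whose product acts at the Golgi, shares 2 probe sets with AT3G13700, the annotated locus next to it, so neither signal can be given to 1 of the genes. The first gave 42.4 to 57.1 over the 6 arrays with overlap of all genotypes. The second gave 122 and 93.6 in Col-0, 126 and 130 in rsl4-1, and 140 and 155 in 35S::RSL4, a log2 change of 0.46 in 35S::RSL4 against Col-0 (0.12 to 0.79, limma adjusted p = 0.095). By group mean the 2 probe sets of the same pair of genes ordered the genotypes differently. Neither passed in any comparison, so the difference in order was not resolved.

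**Figure D3:**
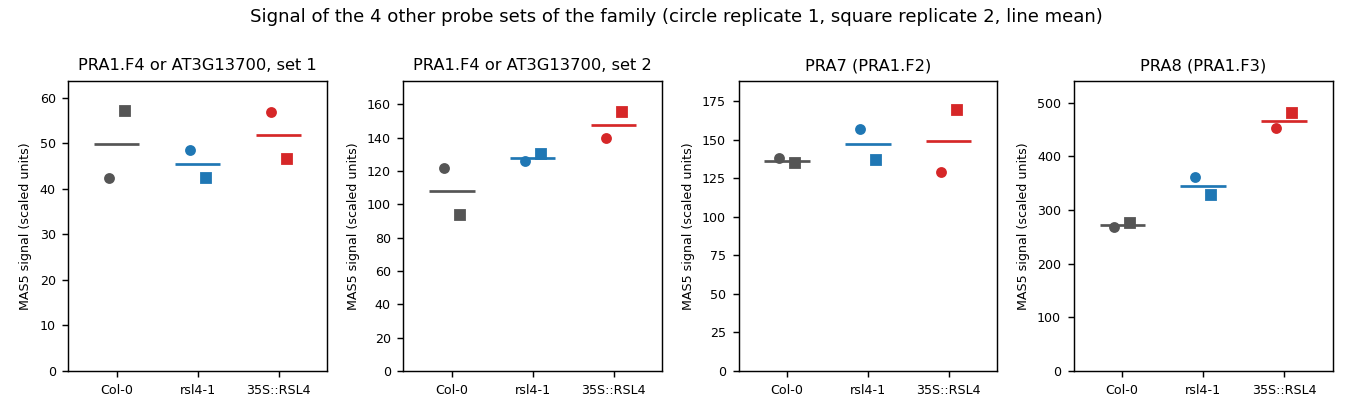
MAS5 signal (scaled units, axis from 0 in each panel) of the 4 probe sets of the PRA1 family outside the rule, with a circle for replicate 1, a square for replicate 2 and a line for the mean. PRA8 steps from 272 in Col-0 to 345 in rsl4-1 and 467 in 35S::RSL4 with close replicates, while PRA7 and the first shared probe set overlap between genotypes.

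Few genes of the surrounding pathway had a listed 1-gene probe set. The annotation names no gene for 8730 of the 22746 probe sets that are not controls. A locus without a listed probe set may therefore still be on the array. Of 57 Rab GTPase loci found by name 2 had a listed one, and both were tested. ARA6, an endosomal Rab of plants, had log2 changes of -0.04 in rsl4-1 and 0.20 in 35S::RSL4 against Col-0 (limma adjusted p = 0.91 and 0.37). RAB6A, of the Golgi-associated H branch of Rabs, had 0.04 and -0.02 (limma adjusted p = 0.93 and 0.94). By name, 12 loci were found for Rab chaperones, prenylation and activators, and 6 for shaping of the endoplasmic reticulum. None of these had a listed 1-gene probe set.

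Of the exocyst, the complex that tethers secretory vesicles to the plasma membrane, 7 of 33 loci had a listed probe set and 6 were tested. With limma 0 of the 6 passed in each of the 3 comparisons, beside 3.81%, 6.27% and 5.46% of all tested probe sets, and 0 had an unadjusted p under 0.05, beside 16%, 22.7% and 19.4%. With 6 probe sets these counts are near the background and are not a result about the exocyst. Their median log2 changes were -0.14 in rsl4-1 and -0.09 in 35S::RSL4 against Col-0, and 0.15 between the lines, against -0.03, -0.06 and -0.04 over all tested probe sets. SEC5A had the smallest adjusted p of the 6 in rsl4-1 (log2 change -0.28, limma adjusted p = 0.35). Of 53 SNARE loci, which drive membrane fusion, 2 had a listed probe set and 1 was tested, SEC22. It had 0.13 in rsl4-1 and -0.08 in 35S::RSL4 against Col-0 (limma adjusted p = 0.69 and 0.75). These single genes of larger groups say nothing about the groups as a whole.

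The 5 tested 1-gene probe sets whose log2 signals over the 6 arrays were most like those of PRA1.E were AT1G29310, AT2G46170, AT1G20810, AT4G16444 and LTI30, with Pearson r of 0.9966, 0.9868, 0.9852, 0.9833 and 0.9830. They were the highest of 7668 candidates, of which 94 had r above 0.9, and 6 arrays in 3 pairs give high values easily. The changes of these 5 were smaller than that of PRA1.E, with log2 changes of 0.23 to 0.39 in 35S::RSL4 against Col-0. AT1G29310, the nearest, gave 137 and 127 in Col-0, 156 on both rsl4-1 arrays, and 171 and 154 in 35S::RSL4.

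**Figure D4:**
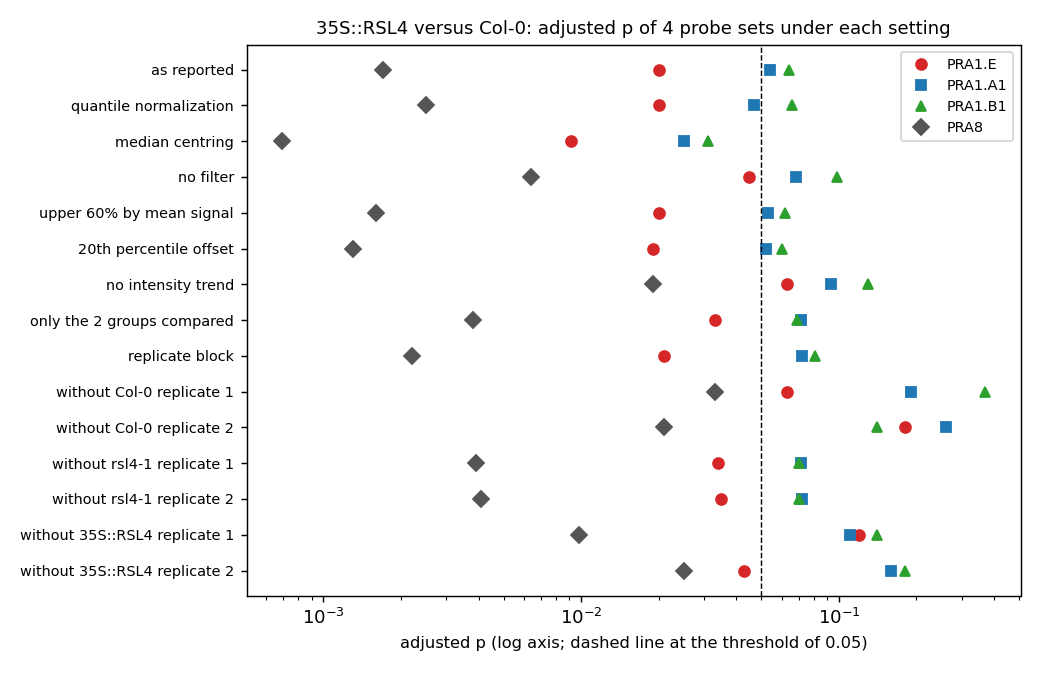
Adjusted p (log axis) of PRA1.E, PRA1.A1, PRA1.B1 and PRA8 in 35S::RSL4 versus Col-0 as reported and under 14 other settings, with the threshold of 0.05 dashed. PRA8 stays left of the line throughout, from 0.00069 to 0.033, while PRA1.E crosses it without Col-0 replicate 1 or 2, without 35S::RSL4 replicate 1 and with no intensity trend.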

How the data were processed

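RNA of 6 root samples was hybridised to 1 ATH1 array each after biotin labelling by in vitro transcription. The deposited intensity values are linear MAS5 signals, for which the submitters' processing notes name MAS5 and GCOS; which version of either was used is not given in the sources used here. Trimmed of the lowest and highest 2%, each array's mean signal was 100.01, so the authors' scaling was kept. A change of total RNA per root is lost by such scaling, and dim probe sets are noisy in MAS5. Precision is limited by the number of arrays.

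Of 22810 probe sets, 64 controls were left out. The 14170 with 2 or more of the 6 arrays above the array's own 40th percentile were tested, and 8576 were not. By the platform annotation 13513 probe sets had 1 gene, 503 had more than 1 and 8730 were not listed; 13436 were matched by gene number to RefSeq (TAIR10.1), used for names, synonyms and locus order. No build is named with the values, so no coordinates are given.

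One limma 3.58.1 model (R 4.3.3; lmFit and trended eBayes) was fitted to the log2 signals of all 6 arrays, with 13.2 prior and 3 residual degrees of freedom. Its two-sided p-values were adjusted over all 14170 probe sets by Benjamini-Hochberg and called under 0.05. Exact permutation of 2 against 2 arrays allows no p below 0.333 and was left out. Folds are the log2 changes on the linear scale. The fit was run on simulated data with larger changes than those of the tested PRA1 probe sets. That run checks the code and does not measure power for changes as small as these.

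Every PRA1 probe set is described. Called members of the related lists, up to 4 a comparison, were to be named, and no member was called; those named were chosen afterwards, apart from lists with 1 or 2 measured members. The 5 probe sets most like the member with the smallest adjusted p were named by Pearson r. One related list is not reported here. The members, lists and marker genes were chosen with earlier results of these data known. The alternatives were a threshold of 0.1, a replicate block, a fit of the 2 groups compared alone, eBayes with no intensity trend, an offset at the 20th percentile, the upper 60% by mean signal or no filter, median centring, quantile normalization, and each array left out in turn.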

Additional observations from a re-analysis of the deposited data

How the results depend on the processing

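Over the 21 log2 changes of the 7 tested PRA1 probe sets, 315 values under 15 alternatives gave 305 on the same side of the threshold, 4 calls lost, 6 gained and none reversed; 11 values, of PRA1.B6, PRA1.G2 and PRA1.H and none of them called, had the opposite sign. In 35S::RSL4 versus Col-0 the 1 member called became 2 with quantile normalization, 3 with median centring or a threshold of 0.1, and 0 with no intensity trend; leaving out each array gave 0 to 1. The lone array of a genotype was then assumed to vary like the others. In rsl4-1 versus Col-0 the count of 0 became 1 (PRA1.E) at a threshold of 0.1 and was 0 to 0 with each array left out, as it was between 35S::RSL4 and rsl4-1 (0 under every alternative run). Calls over all probe sets were 540, 888 and 774 in rsl4-1 versus Col-0, 35S::RSL4 versus Col-0 and 35S::RSL4 versus rsl4-1. They became 265, 404 and 482 with no filter, and 357, 564 and 614 with no intensity trend. At a threshold of 0.1 they became 851, 1612 and 1238. Leaving out each array gave 204 to 522, 212 to 759 and 349 to 653. The cause of these changes was not tested.

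Deviations of same-numbered arrays from their genotype mean correlated at -0.189 (Col-0 and rsl4-1), 0.118 (Col-0 and 35S::RSL4) and -0.085 (rsl4-1 and 35S::RSL4). Each value rests on 1 difference between 2 arrays in each genotype, so it cannot decide whether same-numbered arrays were paired. With the replicate number as a block the members called were 0, 1 and 0 and the calls over all probe sets 520, 802 and 737. With 2 arrays a genotype log2 changes had a median SE of 0.166, and differences like those of PRA1.A1 and PRA1.B1 lie at the edge of what the fit calls. PRA1.F1 and PRA1.G1 were too dim to be compared.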
